A study of Mus musculus with 15 samples.

Results

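The sarcomeric myosin heavy chain genes Myh1, Myh2, Myh4, Myh7, Myh3, Myh8, Myh7b and Myh6 were taken by gene name from the tables of normalized counts, 8 of 55536 genes, and were read in all 15 samples as values and as shares of their sum. The samples were skeletal muscle of male mice aged 2 months, with 5 in each of 3 groups. Controls were labelled wild type, the knockout mice "PdgfrB Knock Out", and the third group "PdgfrB D489V". Per the design text, both mutations acted in cells that express myogenin, a transcription factor of differentiating muscle cells, and D489V makes the receptor constitutively active. PdgfrB (gene symbol Pdgfrb) is a receptor for platelet-derived growth factor. The labels do not name the muscle, the strain or the driver line, and the comparisons asked whether the myosin genes differed between these genotypes.

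Myosin heavy chains are the motor proteins of the thick filament, and the isoform a fibre makes largely sets its contraction speed. In adult limb muscle Myh7 marks slow type I fibres, Myh2 type IIa, Myh1 type IIx and Myh4 the fastest type IIb. Myh3 (embryonic) and Myh8 (perinatal) serve in development and return in regenerating fibres, Myh6 is the alpha isoform of heart muscle, and Myh7b is a slow-tonic isoform of specialised fibres. In whole tissue, fewer fibres of a type and less RNA per fibre cannot be told apart.

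On GRCm38 (GENCODE M21), 5 of the genes lay in a row on the plus strand of chromosome 11. They were Myh3 (ENSMUSG00000020908, 67078300 to 67102291), Myh2 (ENSMUSG00000033196, 67171027 to 67197517), Myh1 (ENSMUSG00000056328, 67200052 to 67224575), Myh4 (ENSMUSG00000057003, 67238029 to 67260446) and Myh8 (ENSMUSG00000055775, 67277124 to 67308634). Myh6 (ENSMUSG00000040752, 54941921 to 54966927) and Myh7 (ENSMUSG00000053093, 54970684 to 54994626) were neighbours on the minus strand of chromosome 14. Myh7b (ENSMUSG00000074652, 155611212 to 155634307) lay on the plus strand of chromosome 2.

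Upstream of the start sites given by RefSeq (GRCm38.p6, plus strand), 4 of the clustered genes shared an identical run of 14 bases. It is shown in capitals in 84 bases around it, since it was the longest identical run in the windows of these 4 genes. Myh3, the remaining gene of the row, lacks it within its window. Shorter shared stretches were not searched for.
Myh2, chr11:67170847-67170930: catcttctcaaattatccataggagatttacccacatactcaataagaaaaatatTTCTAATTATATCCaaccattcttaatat
Myh1, chr11:67199887-67199970: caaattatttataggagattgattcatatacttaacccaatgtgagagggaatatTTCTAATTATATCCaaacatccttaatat
Myh4, chr11:67237599-67237682: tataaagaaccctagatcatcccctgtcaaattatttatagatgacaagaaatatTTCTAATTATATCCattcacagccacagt
Myh8, chr11:67277015-67277098: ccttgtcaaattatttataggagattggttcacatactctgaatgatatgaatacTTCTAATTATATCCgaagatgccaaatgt
The run began 125 bases before the start of Myh2, 160 before Myh1, 158 before Myh4 and 54 before Myh8. Of 32851 RefSeq windows, each the 250 bases before a start, 4 held it on either strand (0.0122%). These were the windows of the 4 genes from which the run was taken. The E-box CANNTG was found in the windows of 6 of the 8 genes (66.2% of all windows hold it), TATAAA in 4 (12.4%), the MEF2 site in Myh1, Myh4 and Myh8 (2.92%), the MCAT element CATTCCT in Myh6 (4.51%) and the CArG box in Myh4 (1.47%), all searched on both strands. Motif matches may overlap one another and are letters, not measured sites.

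The 3 genes outside the chromosome 11 row carry a microRNA in an intron, on their own strand. These mature sequences are shown with the seed, bases 2 to 8, in capitals, because the pair in Myh6 and Myh7 shares its seed and the one in Myh7b has another seed.
miR-208a-3p, intron 29 of Myh6: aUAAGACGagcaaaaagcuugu
miR-208b-3p, intron 31 of Myh7: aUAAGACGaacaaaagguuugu
miR-499-5p, intron 19 of Myh7b: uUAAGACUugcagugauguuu
In this poly(A) RNA the genes Mir208a and Mir499 were listed at 0 in every sample and Mir208b at no more than 5, so the microRNAs themselves could not be followed here.

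The sum of values per sample was 29815559 to 36489777. Muscle fibre markers were abundant throughout, and summed over 7 of them (Ckm, Acta1, Ttn, Neb, Des, Actn2 and Mb) they reached 2037996 to 2734860 in controls, 2230248 to 3042900 in knockout and 2327137 to 2636707 in D489V. Pdgfrb, the targeted gene, held 1673 to 1848 in controls, 958 to 1628 in knockout and 820 to 1062 in D489V. The D489V group, whose receptor is constitutively active per the design text, thus had the lowest range. Knockout 3, labelled male, held 3165 counts of Xist against at most 101 elsewhere. Libraries also parted on some genes of limb and axial position. Hoxd9 held 577 to 707 in controls 4 and 5, knockout 3, 4 and 5 and D489V 3, and 153 to 294 in the other 9. Hoxd8 followed the same division, at 1070 to 1218 against 328 to 511, and Tbx5, a factor of forelimb and heart development, ran the other way at 1 to 16 against 46 to 94. Other limb genes overlapped between the sides, Tbx4 at 73 to 170 against 56 to 110 and Pitx1 at 15 to 50 against 27 to 54. The Hoxd9 division fell unevenly over the groups, with 2 controls, 3 knockout and 1 D489V sample on the high side. The comparisons between groups are also given with log2 Hoxd9 as a covariate, a fit chosen after the values had been seen.

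The 8 genes together made up 8.44% of all normalized counts (7.36 to 9.53% across samples), or 2766255 ± 366778 in controls, 2840786 ± 272082 in knockout and 2572047 ± 169471 in D489V (SD, n = 5 each). Per kilobase of transcript, the order of the mean levels over the 15 samples was Myh4 at 399845 ± 43089, Myh1 at 33329 ± 8587, Myh2 at 12769 ± 6332, Myh7 at 6193 ± 5278, Myh7b at 121 ± 74.7, Myh6 at 101 ± 96.4, Myh3 at 54.1 ± 26.5 and Myh8 at 45.4 ± 10.1 (SD). Myh4 stood apart, with its lowest value of 339427 per kilobase far above the highest Myh1 value of 46250. Myh1, from 20411 per kilobase, overlapped at its low end with Myh2, at 4723 to 22720. Myh2 and Myh7, at 254 to 15247, overlapped, and the last 4 genes overlapped with one another.

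**Figure D1:**
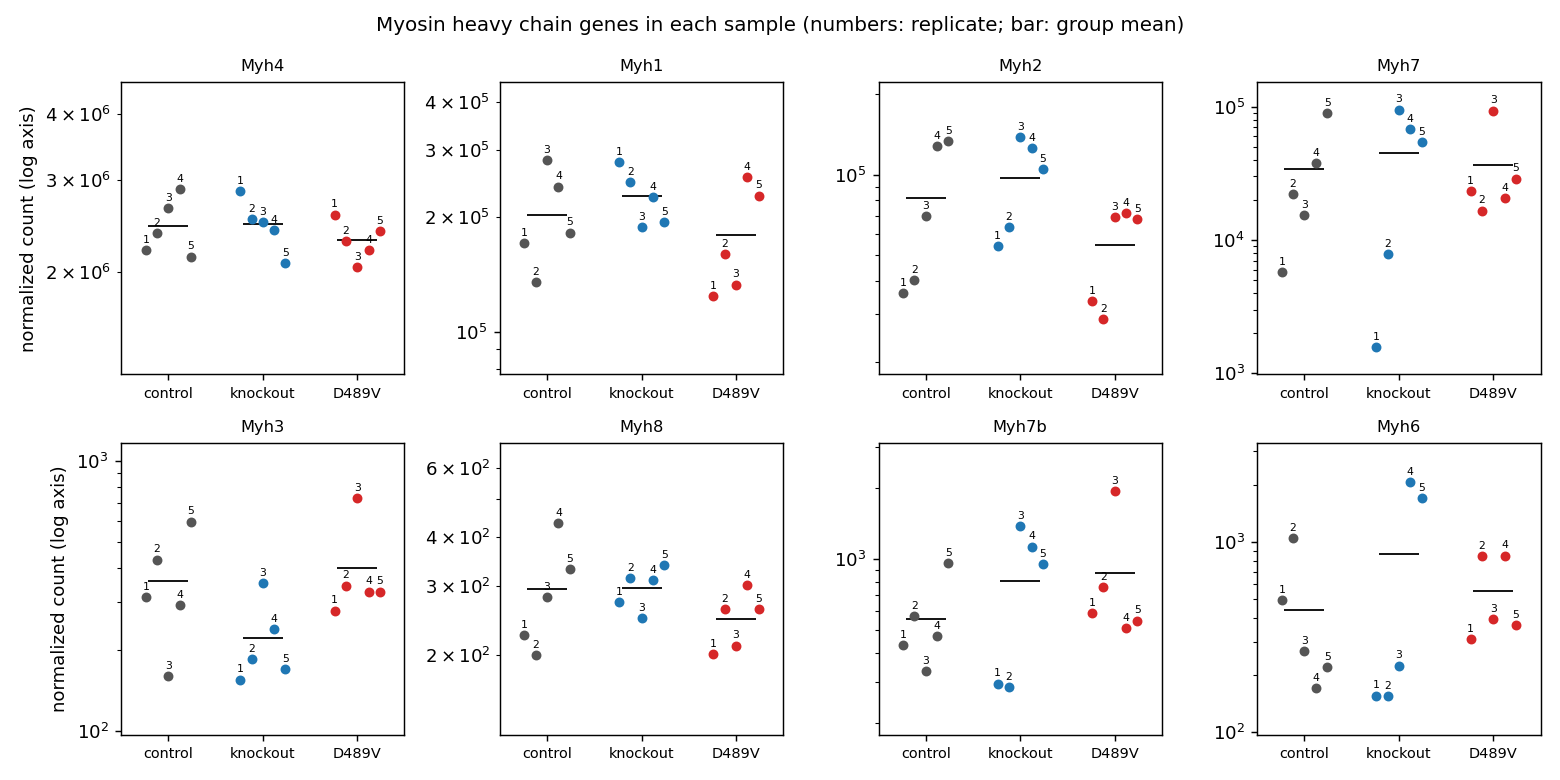
Normalized count of each myosin heavy chain gene (log axis, one panel per gene) in the 5 control, 5 knockout and 5 D489V samples. Each point is 1 sample with its replicate number and the bar is the group mean. The 3 groups overlap in every panel, Myh4 spans a narrow range and Myh7 spans 60.1-fold.

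Myh4, the IIb gene, was the most even of the 8. Its normalized count was 2200064, 2373360, 2647227, 2875640 and 2139728 in controls 1 to 5. It was 2856803, 2518891, 2490759, 2406565 and 2075957 in knockout 1 to 5. It was 2571697, 2286070, 2041993, 2203374 and 2393859 in D489V 1 to 5. The highest sample held 1.41 times the lowest, and each group covered most of the same range. The pooled SD within groups was 0.16 on the log2 scale, smaller than the median of 0.23 over 12159 genes with a mean of 50 or more.

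Myh1, the IIx gene, was higher in some samples of every group. Its control values, samples 1 to 5, were 171135, 135049, 281244, 240232 and 181951. The knockout values were 278335, 246477, 188045, 225470 and 193502, with none under 188045. The D489V values were 124118, 159861, 133011, 254191 and 227514, so that samples 1 to 3 were low and samples 4 and 5 lay inside the knockout range.

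Myh2, the IIa gene, varied more. Its count was 36052, 40294, 70151, 127628 and 133491 in controls 1 to 5. In knockout 1 to 5 it was 53938, 63669, 138207, 125407 and 104723. In D489V 1 to 5 it was 33561, 28727, 69357, 71927 and 67964. The 5 highest values belonged to controls 4 and 5 and knockout 3, 4 and 5, and no D489V sample exceeded 71927. Its pooled within-group SD was 0.72 (log2), larger than that of 96.2% of genes.

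Myh7, the slow type I gene, varied most of the 8. Controls 1 to 5 held 5749, 22084, 15314, 37808 and 88845. Knockout 1 to 5 held 1581, 7816, 94986, 67753 and 54117, both the lowest and the highest value of the series. D489V 1 to 5 held 23246, 16602, 93311, 20674 and 28841. Its pooled within-group SD was 1.78 (log2), larger than that of 99.5% of genes. The 6 highest samples, at 37808 or more against 28841 or less in the other 9, were controls 4 and 5, knockout 3, 4 and 5 and D489V 3, the same 6 that were highest for Hoxd9.

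Of 12159 genes with a mean of 50 or more, 57 (0.469%) had exactly these 6 samples as their highest, Myh7 and Hoxd9 among them. They included Myl3 and Myl2 (slow light chains), Tnni1, Tnnt1 and Tnnc1 (slow troponin subunits), Tpm3 (slow tropomyosin), Atp2a2 (the slow-fibre calcium pump), Mb (myoglobin) and, of the homeobox genes, Hoxd8, Hoxa11 and Hoxc11. Of the other myosin genes, Myh2 and Myh7b each shared 5 of these 6 samples among their own highest 6, Myh8 shared 4, Myh3 shared 3, Myh4 and Myh6 shared 2 and Myh1 shared 1. The labels give no muscle, dissection site or batch, so whether position along the body plays a part in the Myh7 level was not tested.

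**Figure D2:**
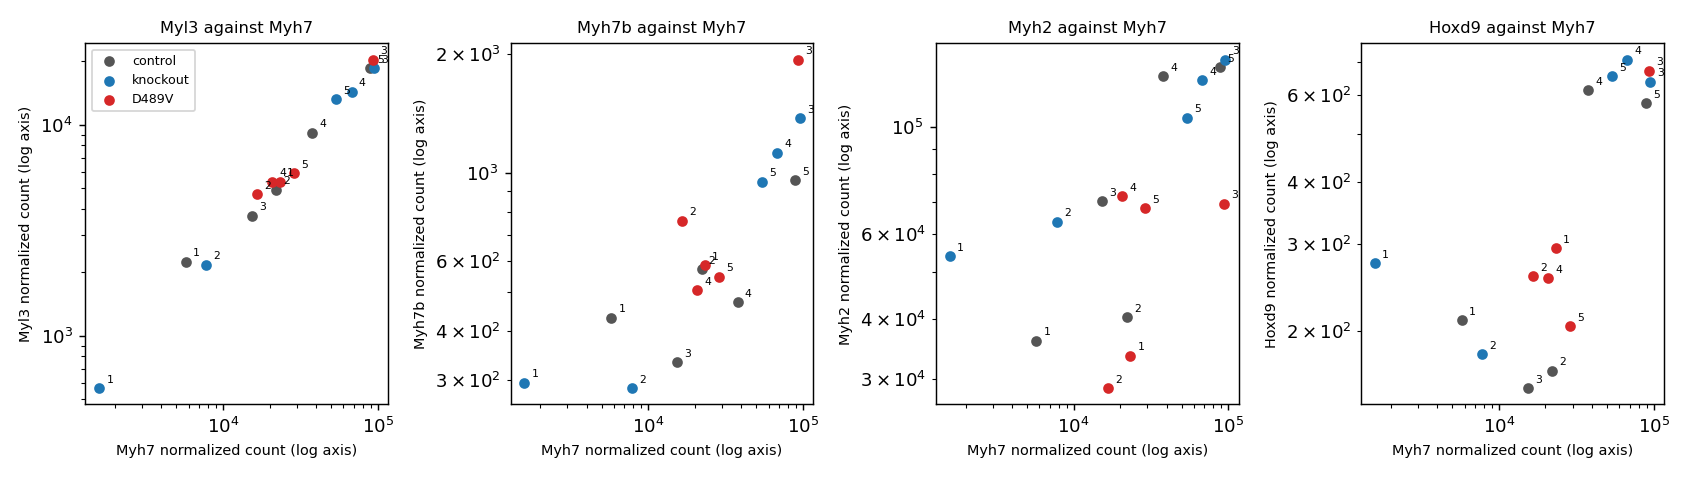
Normalized counts of Myl3, Myh7b, Myh2 and Hoxd9 (vertical) against Myh7 (horizontal) in the 15 samples, both axes logarithmic, with colour for the group and numbers for the replicate. Myl3 follows Myh7 closely over the whole range, and the 6 samples with the most Myh7 are the 6 with Hoxd9 at 577 or more.

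Myh7b, the slow-tonic gene, resembled Myh7. Controls 1 to 5 held 431, 572, 333, 471 and 960. Knockout 1 to 5 held 295, 286, 1377, 1128 and 953. D489V 1 to 5 held 586, 758, 1939, 506 and 547. D489V 3 and knockout 3 were the highest samples for it, as they were among the highest for Myh7, and the Pearson correlation of the log2 values of both genes was 0.841 over the 15 samples, which share libraries.

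Myh6, the cardiac alpha gene, did not follow Myh7, its neighbour. Controls 1 to 5 held 495, 1045, 268, 171 and 221. Knockout 1 to 5 held 156, 155, 224, 2073 and 1697. D489V 1 to 5 held 309, 844, 392, 849 and 365. Knockout 4 and 5 stood highest, while knockout 3, with the most Myh7, held 224. Other markers of heart muscle were absent or nearly so: Nppa and Nkx2-5 were listed at 0 in all 15 samples, Myl7 at no more than 1 and Nppb at no more than 2, and in knockout 4 and 5 these 4 genes held 0 to 2. Of the 8 cardiac markers, 6 had a mean under 10, and their sum of 119 to 573 in controls, 72 to 405 in knockout and 175 to 607 in D489V was carried by Sln, a calcium pump regulator also made in slow skeletal muscle, and Tbx5.

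Myh3, the embryonic gene, was low everywhere. Controls 1 to 5 held 312, 431, 160, 293 and 595. Knockout 1 to 5 held 155, 185, 352, 239 and 170. D489V 1 to 5 held 279, 345, 726, 328 and 328. D489V 3 held the most, and 4 of the 5 knockout samples lay below every D489V sample, with knockout 3 the exception.

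Myh8, the perinatal gene, was also low. Controls 1 to 5 held 224, 200, 281, 433 and 331. Knockout 1 to 5 held 272, 314, 248, 310 and 338. D489V 1 to 5 held 201, 261, 211, 301 and 261. The highest sample held 2.17 times the lowest, and the D489V values lay within the control range. Its pooled within-group SD was 0.31 (log2), larger than that of 71.5% of genes.

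As shares of the 8-gene sum, which do not depend on library scaling, Myh4 took 84.0 to 93.4% in each sample. Its mean share was 88.6 ± 3.24% in controls, 86.8 ± 2.12% in knockout and 89.3 ± 3.04% in D489V (SD, n = 5 each). Myh1 took 7.23 ± 1.45%, 7.96 ± 0.919% and 6.99 ± 2.18% in the same order. The IIb and IIx genes thus held nearly all of the family's counts in every group. Myh2 took 2.90 ± 1.62%, 3.48 ± 1.41% and 2.13 ± 0.879%. Myh7 took 1.25 ± 1.30%, 1.64 ± 1.41% and 1.47 ± 1.41%, with a range of 0.0495% in knockout 1 to 3.99% in D489V 3. Among 24 exact two-sided permutation tests of a share, none passed after Benjamini-Hochberg adjustment. The smallest p, for the Myh3 share in knockout (0.00778 ± 0.00272%) against D489V (0.0160 ± 0.00851%), was 0.0238, adjusted 0.571.

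**Figure D3:**
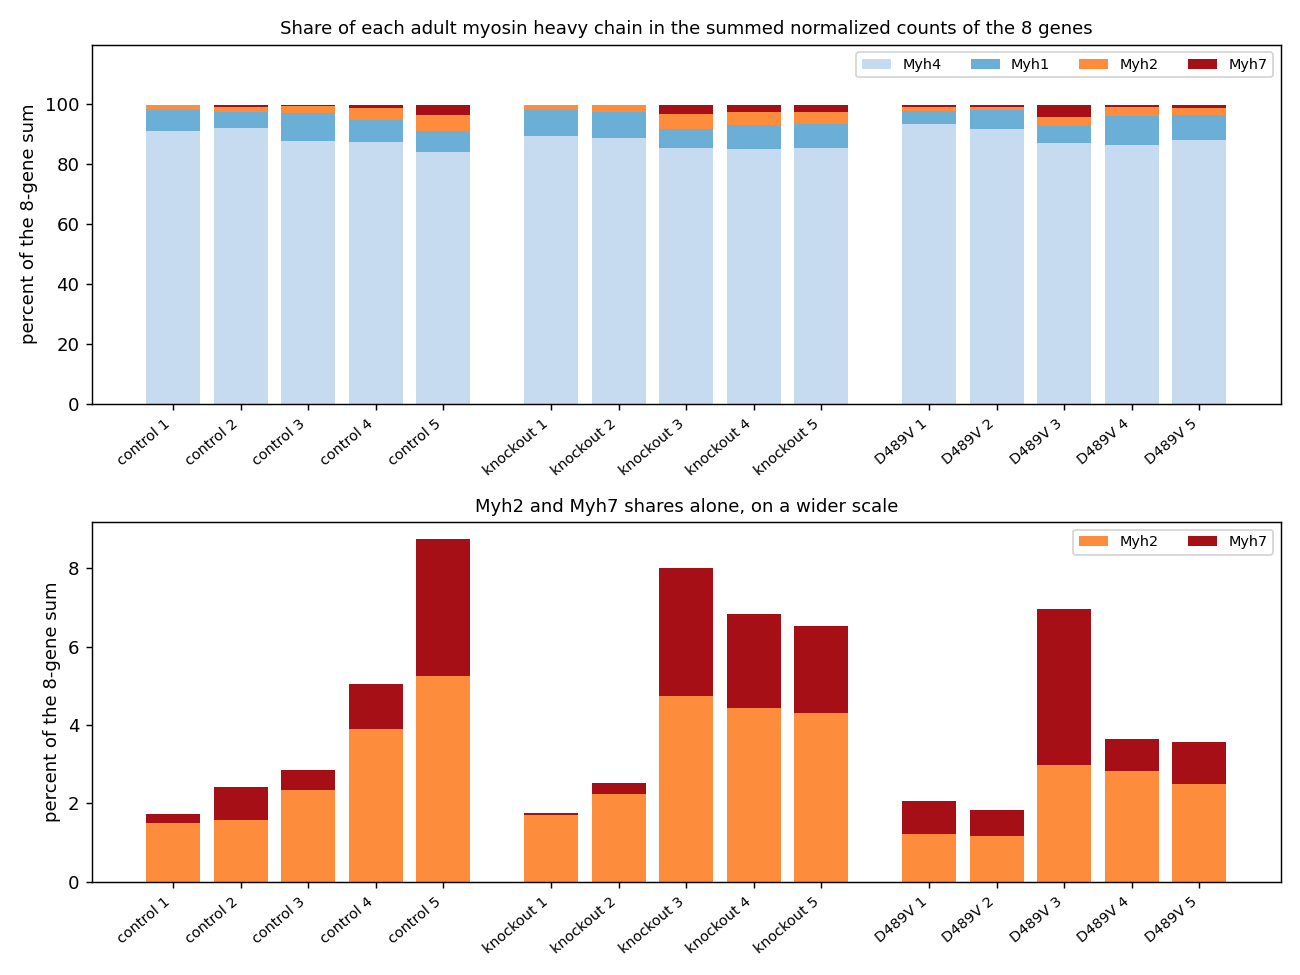
Percent of the summed normalized counts of the 8 genes taken by Myh4, Myh1, Myh2 and Myh7 in each sample (upper panel, stacked bars from 0) and by Myh2 and Myh7 alone (lower panel). Myh4 takes 84.0 to 93.4% of every bar, and the Myh7 segment is tallest in D489V 3, at 3.99%.

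Ratios between members within a library gave the same picture of overlap. The log2 ratio of Myh2 to Myh4 was -5.11 in controls, -4.76 in knockout and -5.51 in D489V on average, and that of Myh7 to Myh2 was -1.61, -2.10 and -0.79. For Myh1 to Myh4 it was -3.64, -3.46 and -3.73. None of 9 exact permutation tests of these ratios passed, and the lowest adjusted p was 0.571. With 5 samples against 5 the smallest p such a test can give is 0.00794.

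In knockout against control, no member was called by limma at an adjusted p under 0.05, where 1 of 15234 genes was called (0.00656%) and 2296 had an unadjusted p under 0.05. No member separated the groups without overlap, as 2.24% of all genes did. The estimate nearest to the threshold was that of Myh3, with a log2 difference of -0.64 (standard error 0.32, limma adjusted p 0.359, 95% interval -1.34 to 0.07). For the adult genes the log2 differences were 0.01 for Myh4, 0.20 for Myh1, 0.37 for Myh2 and -0.12 for Myh7. The intervals were wide, from -0.33 to 0.72 for Myh1, from -0.53 to 1.27 for Myh2 and from -2.48 to 2.24 for Myh7. Those of Myh2 and Myh7 hold changes of over 1 on the log2 scale. The Myh4 interval ran from -0.95 to 0.98 (standard error 0.44), although its values were the most even. It depended on the variance model and the filter. The Myh4 standard error was 0.15 under robust eBayes, 0.12 without the variance trend and 0.74 with no filter. With log2 Hoxd9 as a covariate the difference of Myh2 moved to -0.04 and that of Myh7 to -1.09 (limma adjusted p 0.966 and 0.597).

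In D489V against control, no member was called either, where 9 of 15339 genes were (0.0587%) and 1447 had an unadjusted p under 0.05. All 8 overlapped between the groups, which 2.16% of genes did not. The log2 differences were -0.09 for Myh4, -0.18 for Myh1, -0.48 for Myh2 (95% interval -1.39 to 0.43), 0.34 for Myh7 (-1.10 to 1.78), 0.54 for Myh7b (-0.27 to 1.34), 0.52 for Myh6, 0.20 for Myh3 and -0.21 for Myh8. Without D489V 3, the differences of Myh7 and Myh3 were -0.07 and -0.04. Without control 1 that of Myh7 was -0.16, and without control 3 that of Myh3 was -0.06, so neither sign was stable to single samples. With log2 Hoxd9 as a covariate 166 genes were called (1.08%) and still no member, the nearest being Myh7b at 0.48 (limma adjusted p 0.566).

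In knockout against D489V, 1 of the 8 members was called, Myh3, where 3181 of 15299 genes were (20.8%). The share of members called was therefore not above that of all genes. Myh3 held 220 ± 80.2 in knockout and 401 ± 183 in D489V (SD, n = 5), a log2 difference of -0.84 (standard error 0.27, 95% interval -1.43 to -0.24, limma adjusted p 0.0472). The exact permutation p for this value was 0.0397, adjusted 0.724 over the 24 tests of a member in a comparison. The limma call was lost in 9 of the 10 fits that left out 1 of them, at limma adjusted p up to 0.0975, and kept without knockout 3 (-1.02, limma adjusted p 0.0244). Without D489V 3, the sample with the most Myh3, the difference was -0.60 (limma adjusted p 0.0823).

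With log2 Hoxd9 as a covariate in this comparison, Myh3 differed by -1.05 (standard error 0.22, limma adjusted p 0.0103) and Myh7b by -0.75 (standard error 0.18, 95% interval -1.14 to -0.35, limma adjusted p 0.0160), so 2 of the 8 members were called, where 3587 of 15299 genes were (23.4%). Both calls were lost without D489V 3, the only D489V sample with high Hoxd9, with the covariate kept. Myh3 then differed by -0.79 and Myh7b by -0.72, and neither passed (limma adjusted p 0.0651 and 0.0725). In that fit 1013 of 15124 genes were called. Both members passed in the 9 fits that each left out another sample. Without the covariate Myh7b differed by -0.19 (limma adjusted p 0.811). Myh7 moved from -0.46 to -1.42 and did not pass (standard error 0.62, limma adjusted p 0.113). The remaining members were not called with or without it over all 10 samples. Myh2 differed by 0.85 (95% interval 0.13 to 1.58, limma adjusted p 0.0853) and by 0.62 with the covariate (limma adjusted p 0.142), Myh1 by 0.38 and Myh8 by 0.27. No member separated knockout from D489V without overlap, as 13.9% of genes did.

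**Figure D4:**
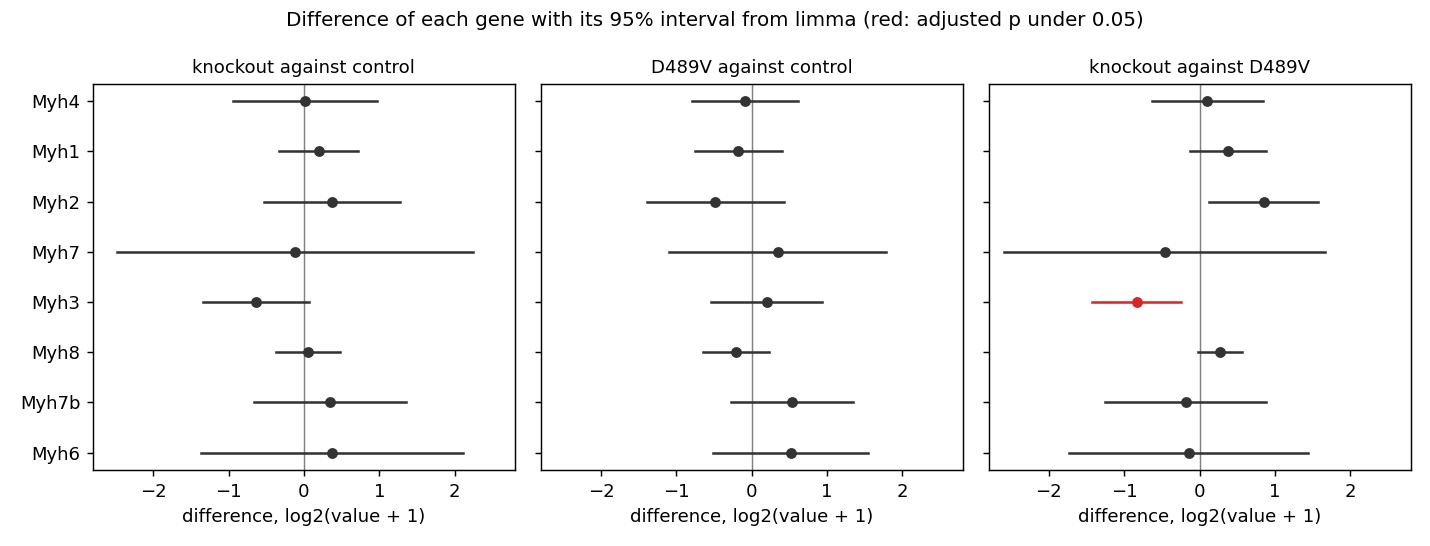
Log2 difference of each myosin heavy chain gene in the 3 comparisons (points) with its 95% interval from limma (lines), on the log2(value + 1) scale with 5 samples a group and no covariate. The intervals include 0 except for Myh2 and Myh3 in knockout against D489V, and Myh3 (red) is the one called at an adjusted p under 0.05.

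Markers of other cells were called in the same comparison as Myh3, in the fit without the covariate, where 10.3% of all genes were called lower. Of 6 spindle markers tested, 3 were lower in knockout than in D489V: Egr3, a factor of intrafusal fibre formation, at 75.4 ± 71.0 against 162 ± 41.2 (limma adjusted p 0.0497), Ntf3, a neurotrophin made by spindles, at 51.4 ± 23.8 against 87.8 ± 14.7 (limma adjusted p 0.0412), and Pou4f1, a sensory neuron factor, at 106 ± 46.3 against 204 ± 46.6 (limma adjusted p 0.0263). Summed over the 7 spindle markers the level was 544 to 684 in knockout, 857 to 1010 in D489V and 568 to 893 in controls. All 6 Schwann cell and nerve markers were lower, with a sum of 6245 to 9832 in knockout and 12324 to 49785 in D489V, as were 5 of 6 adipocyte markers (11540 to 19929 against 29505 to 95944), 5 of 5 endothelial markers (7567 to 12400 against 14852 to 17396) and 3 of 6 mural markers (14398 to 17715 against 18114 to 25237). Of the 8 satellite cell and regeneration markers, 7 were tested and 1, Myl4, was lower, a share near that of all genes, while Myog, Myod1 and Pax7 did not pass. Intrafusal and regenerating fibres can both hold Myh3, and the part of these cells in the Myh3 difference was not tested.

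**Figure D5:**
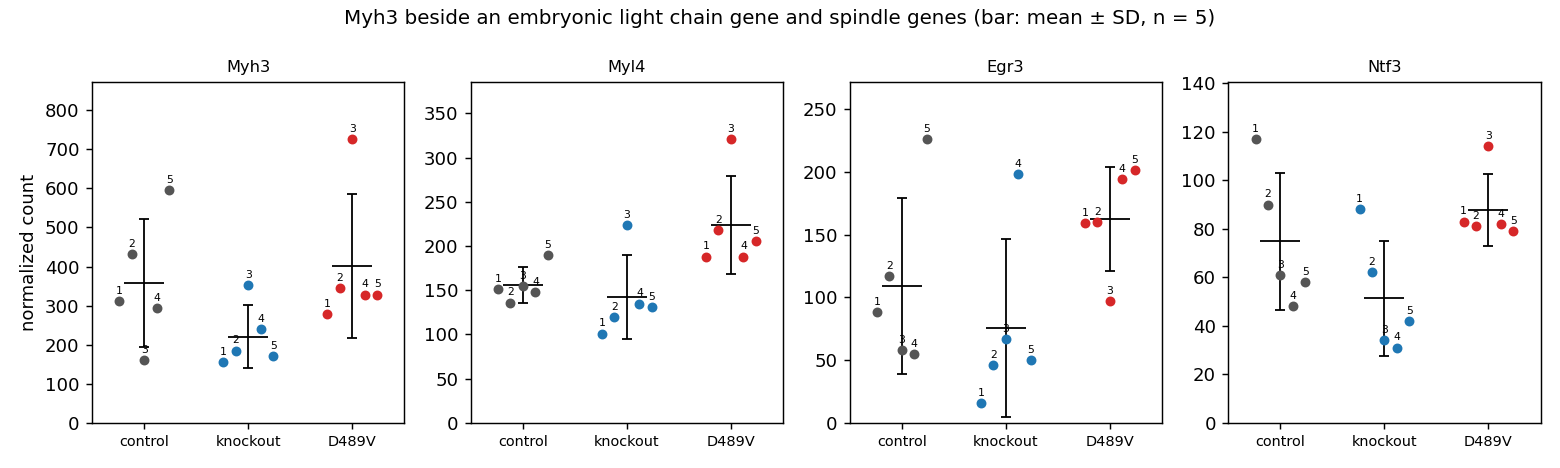
Normalized counts of Myh3, Myl4, Egr3 and Ntf3 in the 15 samples by group (linear axes from 0, points are samples with replicate numbers, bars are mean ± SD, n = 5). All 4 genes were called lower in knockout than in D489V, and the groups overlap in each panel.

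The partner genes of the myosins were read from lists, in the fits without the covariate. In both comparisons with control, none of them was called in any of the 6 lists: 16 slow-fibre genes, 16 fast-fibre genes, 11 developmental genes, 21 regulators, 11 folding and assembly genes and 5 other myosin heavy chains that were tested. The median log2 differences of the slow list were 0.13 in knockout and 0.19 in D489V, beside 0.01 and 0.00 over all genes, and those of the fast list were -0.02 and 0.05. The median of the developmental list was -0.41 in knockout, with 1 of 11 genes above 0, and -0.23 in D489V. For the regulators it was 0.22 and -0.03, with 18 and 8 of 21 above 0.

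In knockout against D489V, where 10.5% of all genes were called higher and 10.3% lower, 1 of 16 slow-fibre genes was higher and 0 lower. This was Casq2, the slow and cardiac calsequestrin, at 2512 ± 704 against 1328 ± 419 (limma adjusted p 0.0255). The most abundant members of that list did not pass, among them Tnnt1 at 9877 ± 8003 against 7960 ± 7447. Of 16 fast-fibre genes 2 were higher and 0 lower: Mylk4, a myosin light chain kinase family member, with a log2 difference of 1.15, and Myoz3, a Z-disc protein, with one of 0.44 (limma adjusted p 0.0282 and 0.0414). Tnnt3, Myl1, Atp2a1 and Tpm1, the most abundant fast-list genes, did not pass. Of 10 developmental genes tested, 1 was lower, Myl4, the embryonic and atrial light chain, at 142 ± 47.6 against 224 ± 55.6, a log2 difference of -0.68 (limma adjusted p 0.0419). Myl4 was thus lower beside Myh3, whereas Actc1, the fetal and cardiac actin, held 80438 ± 31812 against 46054 ± 5458 and did not pass.

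Among 21 regulators of fibre type, 5 were higher and 1 lower in knockout than in D489V. Of all genes 10.5% were called higher and 10.3% lower, and whether the list departs from these shares was not tested. Rcan1, a calcineurin regulator and target, held 3233 ± 388 against 1622 ± 315 (log2 difference 1.01, limma adjusted p 0.00218). Tead1, which binds MCAT elements, differed by 0.50, Esrrg, a nuclear receptor of oxidative fibres, by 1.09, and Mef2a and Mef2c, which bind MEF2 sites, by 0.46 and 0.34. Hdac5, a repressor of MEF2 factors, was lower by a log2 difference of -0.44 (limma adjusted p 0.0136). Maf and Tbx15, both known in fast glycolytic fibres, did not pass. Within the 8 members, none of the 4 adult genes was called beside these regulators.

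Of 11 folding and assembly genes, 3 were higher in knockout than in D489V and 0 lower, beside 10.5% and 10.3% of all genes. Smyd1, a methyltransferase needed for thick filament assembly, held 19423 ± 1142 against 12559 ± 3652 (log2 difference 0.68, limma adjusted p 0.0192). Unc45b, the myosin chaperone, differed by 0.31 (limma adjusted p 0.0484) and Trim55, a thick filament ubiquitin ligase, by 0.62 (limma adjusted p 0.0201). Controls ran across most of both ranges, with Smyd1 at 9339 in control 1 and 20958 in control 4. Myom1, Mybpc1, Mybpc2 and Mybph, the most abundant of this list, did not pass (limma adjusted p 0.147, 0.0871, 0.556 and 0.848). Of 5 other myosin heavy chains tested, 2 were higher and 2 lower, beside the same shares of all genes. Myh10 and Myh14, nonmuscle isoforms, were higher by 0.63 and 0.40 on the log2 scale. Myh11, the smooth muscle isoform, and Myh13, the extraocular isoform next to Myh8 on chromosome 11, differed by -0.61 and -0.83 (limma adjusted p 0.0178 and 0.0257). Myh13 held 112 to 249 in knockout and 272 to 472 in D489V, so those groups did not overlap, as in 13.9% of all genes. Controls ran from 190 to 343.

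Between Myh3 and Myh2 lies 2310065F04Rik, a long noncoding RNA gene on the minus strand (67112461 to 67120080). It held 3119, 3399, 3213, 5225 and 2791 in controls 1 to 5. It held 6629, 1902, 2050, 2836 and 2327 in knockout 1 to 5. It held 4327, 3211, 3466, 2688 and 3927 in D489V 1 to 5. Knockout 1, with the lowest Myh7, held the most, and the groups overlapped.

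Across the 15 samples, 5 pairs of members were tested for a relation on the log2 scale. Myh7 and Myh2 had a Pearson r of 0.604 (permutation p 0.0163, adjusted 0.0815) and a Spearman rho of 0.682 (permutation p 0.00655, adjusted 0.0327), and r was 0.650 without the 2 samples farthest from the median of Myh7. With group means removed r was 0.757 (permutation p 0.00109, adjusted 0.00545). That permutation shuffled the deviations over all samples although each group was centred on its own mean, so its p may be too small. The relation did not hold within either side of the Hoxd9 division, a split chosen after the values had been seen. Among the 6 samples with high Hoxd9 r was -0.20 (exact permutation p 0.721, adjusted over 10 such tests 0.801) and rho 0.257 (exact permutation p 0.658, adjusted 0.885), with r -0.26 without the 2 farthest. Among the other 9 r was -0.02 (exact permutation p 0.970, adjusted 0.970) and rho 0.03 (exact permutation p 0.948, adjusted 0.948), with r -0.16 without the 2 farthest. The 6 samples with high Hoxd9 were also the 6 highest for Myh7, so the split narrowed the range of Myh7 on each side. It therefore cannot decide what the relation over all samples rested on.

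The other 4 pairs did not pass over all samples or on either side of that division. For Myh1 and Myh4 r was 0.467 (permutation p 0.0809, adjusted 0.202), rho 0.489 (permutation p 0.0669, adjusted 0.167) and r 0.552 without the 2 farthest samples. For Myh2 and Myh1 r was 0.416 (permutation p 0.122, adjusted 0.203), rho 0.336 (permutation p 0.222, adjusted 0.277) and r 0.182 without those 2. Myh3 and Myh8, the developmental pair, did not rise together, with r -0.33 (permutation p 0.227, adjusted 0.283), rho -0.40 (permutation p 0.140, adjusted 0.233) and r -0.23 without those 2. For Myh2 and Myh4 r was 0.01 (permutation p 0.972, adjusted 0.972), rho -0.02 (permutation p 0.944, adjusted 0.944) and r 0.04 without those 2. Among the 9 samples with low Hoxd9, Myh2 and Myh1 had r 0.850 (exact permutation p 0.00924, adjusted 0.0924) and rho 0.767 (exact permutation p 0.0214, adjusted 0.214). Without the 2 farthest of these r was 0.813. Among the 6 with high Hoxd9 their r was 0.780 (exact permutation p 0.0958, adjusted 0.319), but rho was 0.143 and r -0.85 without the 2 farthest.

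The genes most alike in pattern were taken as the 3 with the highest Pearson r over the 15 samples among 12151 genes outside the family, as a description. For Myh7 they were Myl3 (r 0.995), Tnni1 (0.993) and Tnnt1 (0.986), all slow-fibre sarcomere genes, with Myl3 running from 566 in knockout 1 to 20368 in D489V 3. For Myh2 they were Klhl34 (0.966), Smtnl1 (0.961), a smoothelin-like protein, and Fhl1 (0.957), a LIM protein of muscle. For Myh1 they were Cnnm4 (0.935), Phlpp1 (0.910), a phosphatase of the Akt pathway, and Tbc1d9b (0.904). For Myh4 the highest were lower, with Surf4 (0.838), Wipi1 (0.837) and Hrc (0.835), a calcium-binding protein of the sarcoplasmic reticulum. For Myh3 they were Gch1 (0.845), Bin3 (0.834) and Hes1 (0.833), a Notch target, and for Myh8 Yars (0.874), 2510039O18Rik (0.869) and Pard3 (0.865).

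How far reads can tell these genes apart depends on their similarity. Coding sequences of Myh1 and Myh2 were 91.0% identical, those of Myh1 and Myh4 90.1% and those of Myh6 and Myh7 91.5%, while Myh7b was 68.7 to 71.8% identical to the others. Of all 50-base stretches of the transcript, 26.9% of Myh2, 26.7% of Myh1, 22.6% of Myh6, 22.2% of Myh7, 21.4% of Myh8 and 18.9% of Myh4 also occurred in another gene, against 4.81% of Myh3 and 0% of Myh7b. At 100 bases these shares were 11.4% for Myh6, 11.2% for Myh7 and at most 9.73% for the rest. The read length and the treatment of reads that fit several genes are not given in the sources used here. Values of the low genes beside an abundant near-copy, Myh8 beside Myh2 and Myh6 beside Myh7, with which each shared the most 50-base stretches, are therefore uncertain. Myh3 shared few exact stretches and Myh7b none, but how far reads with mismatches affect their values was not tested.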

How the data were processed

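RNA was poly(A)-selected and made into strand-specific libraries, per the labels' protocols. The deposited unit is a score: whole numbers that, by the tables' own name, are read counts per gene which the authors had normalized and rounded. The submitters' processing notes name Trim Galore 0.6.0, cutadapt, FastQC, STAR 2.7.0e, DESeq2 1.26.0 and GRCm38. The counting tool and annotation are not given in the sources used here. The 2 deposited tables held the same control columns, and median ratios to the geometric mean of 1.0069 to 1.0097 put all 15 samples on one scale. All 55536 gene identifiers matched GENCODE M21.

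Group comparisons (5 against 5 samples) used limma 3.58.1 in R 4.3.3, with lmFit and two-sided trended eBayes, on log2(value + 1) of the genes that reached 10 in 5 or more of the 10 samples, with Benjamini-Hochberg adjustment over all genes tested and a threshold of 0.05. Differences on this scale understate those of low genes. The fit was tested on simulated data with the same spread set for every gene, so that test does not speak for genes as variable as Myh2, Myh6 or Myh7. Shares and ratios had exact two-sided permutation tests over samples, and relations permutation tests with Benjamini-Hochberg adjustment over the pairs. Samples were grouped by labelled genotype. The labels do not say that replicates are separate animals, so p-values measure the spread between these samples. Levels between genes are per kilobase of the longest GENCODE basic transcript. Named were all 8 members, the called members of the 6 partner lists (at most 6 a list, smallest p first) and the 3 genes most like 6 of the members. Some, not all, of the most abundant list members and of the cell markers were also named. Hoxd9, Hoxd8, Hoxa11, Hoxc11, Tbx5, Tbx4, Pitx1, 2310065F04Rik and the microRNA genes were named after their values had been seen. The gene listed as Murc was not matched by name, and 1 gene of the regulator list is not reported here. The members, lists and tests were chosen with earlier results of these data known. Alternatives changed the pseudocount, filter, scaling, variance model, samples in the fit, replicate block and left-out samples. The fits with log2 Hoxd9 (all samples, or without 1 of them), the fit without the variance trend, and the relations on each side of the Hoxd9 division were added after seeing the data.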

Additional observations from a re-analysis of the deposited data

Results flagged for a closer look

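Of 48 groups of 5 values tested (log2 values and shares of the 8 genes in each group), 5 held 1 sample far from the others, with a gap above 0.71 of the group's range. Chance flags about 1 in 20 such groups. D489V 3 was far from its group in 4 of them. Its log2 Myh3 value was 9.51 against 8.13 to 8.43 in the rest of the group, and its Myh3 share was 0.0310% against 0.0101 to 0.0138%. Its Myh7 share was 3.99% against 0.666 to 1.06%, and its Myh7b share was 0.0828% against 0.0198 to 0.0304%. In controls, sample 5 had a Myh7 share of 3.49% against 0.238 to 1.15% in the others. D489V 3 was also the one D489V sample with a high Hoxd9 value, at 672 against 204 to 294.

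The log2 difference of Myh3 between the 2 mutant groups, -0.84 in knockout against D489V, passed the test of that difference in limma (adjusted p 0.0472).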

How the results depend on the processing

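No pairing of samples is stated. The deviations of samples with the same number were correlated at -0.23 to 0.25 between knockout and control. They were correlated at -0.37 to 0.35 between D489V and control and at -0.10 to 0.10 between both mutants. Samples with different numbers were not compared in this way, so whether the numbers pair samples was not tested. Under a replicate block 1, 7 and 2208 genes passed in the same order, Myh3 in knockout against D489V kept its call (limma adjusted p 0.00813) and Myh2 gained one (0.85, limma adjusted p 0.0121). No share or ratio passed under the block, where 5 pairs cannot give an exact p below 0.0625.

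The number of genes passing in knockout against control, 1, was 3 with quantile normalization, 15 in 1 fit of all samples and 1 to 7 without 1 replicate (7 without knockout 2). In D489V against control, 9 became 19 at a pseudocount of 5, 4 over genes whose mean reached 50, 17 after upper-quartile rescaling, 16 after quantile normalization, 21 with robust eBayes, 1 in 1 fit of all samples, 166 with log2 Hoxd9, and 2 to 26 without 1 replicate (26 without D489V 3). The share of higher genes was 44.4%, against 52.6, 75.0, 58.8, 43.8, 52.4, 0.0 and 71.1% under those settings. In knockout against D489V, 3181 became 1398 to 3686 without 1 replicate (1398, 1526 and 1989 without D489V 1, 2 and 3). With log2 Hoxd9 and without 1 replicate the number was 1013 to 3960 (1886, 2025 and 1013 without D489V 1, 2 and 3), and Myh1 passed without D489V 4 (0.62, limma adjusted p 0.0450). The causes of these shifts were not tested.

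Myh3 in knockout against D489V stayed negative, at -1.05 to -0.60, in all 21 alternatives that changed 1 choice and was called in 6. Its limma adjusted p was 0.0627 with no filter, 0.0532 after upper-quartile rescaling, 0.0637 after quantile normalization, 0.0517 under robust eBayes, 0.0712 without the variance trend and 0.0850 in 1 fit of all samples.

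With log2 Hoxd9, differences of knockout against control turned negative for Myh2 (-0.036), Myh7b (-0.071) and Myh8 (-0.060). Without 1 replicate, log2 differences changed sign for Myh4 (-0.040 to 0.076), Myh6 (-0.17 to 0.77), Myh7 (-0.66 to 0.82) and Myh8 (-0.065 to 0.21) in knockout against control, for Myh3 (-0.057 to 0.41) and Myh7 (-0.16 to 0.83) in D489V against control, and for Myh6 (-0.69 to 0.24), Myh7 (-1.004 to 0.47) and Myh7b (-0.45 to 0.16) in knockout against D489V. The log2 ratio of Myh1 to Myh4 in D489V against control ran from -0.25 to 0.066 and that of Myh7 to Myh2 in knockout against control from -0.88 to 0.26. Share differences in percentage points ran in D489V against control from -0.984 to 0.379 for Myh1, -0.00124 to 0.00500 for Myh3, -0.361 to 1.69 for Myh4 and -0.404 to 0.784 for Myh7. In knockout against control they ran from -0.0127 to 0.952 for Myh7 and -0.000748 to 0.000749 for Myh8, and in knockout against D489V from -0.237 to 0.796 for Myh7 and -0.0103 to 0.00622 for Myh7b. None of these passed a test as reported or without 1 replicate. With group means removed, r of Myh2 and Myh4 was -0.15 and that of Myh7 and Myh2, 0.757, passed, by a permutation p that may be too small. The r of Myh7 and Myh2 was -0.204 among the 6 samples with high Hoxd9 and -0.0154 among the other 9.

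Read depth was not recovered from the rounded values, so no counting error is given, and the low genes Myh3, Myh8, Myh7b and Myh6 are the ones it limits.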
